A study of Mus musculus with 3 samples.

Results

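The 27 genes described here encode enzymes of the mevalonate and sterol pathway and the proteins that control it through the sterol regulatory element-binding proteins (SREBPs). They were taken by symbol from the 32286 genes of the count tables, and all 27 were found. The tables hold 3 single-cell RNA libraries from mice, 1 per group. Every mouse had received bleomycin, a drug that injures the lung and leads to fibrosis, through the airway 14 days before. The liquid washed out of the airspaces (bronchoalveolar lavage fluid) was combined within each group, and cells carrying CD11b or CD11c were sorted from it. The groups were wild-type mice under DMSO, wild-type mice given GW5074 (a small-molecule RAF kinase inhibitor), and Clec7a knockout (KO) mice under DMSO. Clec7a encodes Dectin-1, a receptor of myeloid cells for fungal glucans. No group without bleomycin was analysed here, and the labels give neither the number of mice in a pool, nor their strain, age or sex, nor the GW5074 dose. With 1 pooled library per group there is no test between groups: 95% intervals on levels and ratios cover counting error only, and differences between mice cannot be told apart from differences between groups.

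Cells make cholesterol from acetyl-CoA through mevalonate, the isoprenoid diphosphates, squalene and lanosterol. When membrane sterol is low, SCAP carries SREBP from the endoplasmic reticulum to the Golgi, where the site-1 and site-2 proteases (Mbtps1 and Mbtps2) release its active part, which raises transcription of most of these enzymes. INSIG proteins hold the SCAP complex back when sterols are plentiful, and Insig1 is itself a target of the pathway. Alveolar macrophages clear surfactant and so take up much lipid.

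SREBPs bind sterol regulatory elements and often act beside NF-Y, which binds CCAAT boxes, so the promoters were searched for both. RefSeq promoters (250 bases before to 50 after the start, GRCm38.p6) were at hand for 23 of the 27 genes; Sqle, Fdft1, Fdps and Stard4 had none. The 9-letter element TCACNCCAC, on either strand, was in the promoter of 1 of the 23 genes, Hmgcs1, against 1.44% of all 27025 genes. CCAAT, on either strand, was in 19 of the 23 genes (82.6%), against 41.1% of all genes. The bases before the start are shown for Hmgcs1 (chr13:119690101-119690350, plus strand), which carries the element, and for Idi1 (chr13:8885356-8885605, plus strand), chosen after its values were seen because it had the highest level of any of the 27 genes in a class. Capitals mark the sterol regulatory element, which begins 137 bases before the Hmgcs1 start, and the CCAAT boxes, all of which read as their reverse complement ATTGG. A match describes the letters and is not shown to be a bound site.
Hmgcs1: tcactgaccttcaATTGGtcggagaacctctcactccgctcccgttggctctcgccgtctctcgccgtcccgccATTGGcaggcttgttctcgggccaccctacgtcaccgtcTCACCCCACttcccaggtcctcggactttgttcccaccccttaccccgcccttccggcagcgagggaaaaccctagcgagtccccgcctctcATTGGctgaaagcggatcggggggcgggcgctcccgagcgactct
Idi1: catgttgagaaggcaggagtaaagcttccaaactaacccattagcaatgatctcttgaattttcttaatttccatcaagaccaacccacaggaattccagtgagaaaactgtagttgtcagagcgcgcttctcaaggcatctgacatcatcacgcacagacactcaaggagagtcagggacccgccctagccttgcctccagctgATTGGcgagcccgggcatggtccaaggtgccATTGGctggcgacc
The boxes shown begin 237, 176 and 45 bases before the start of Hmgcs1 and 45 and 14 bases before that of Idi1.

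The libraries held 39180331 (wild type, DMSO), 45462817 (wild type, GW5074) and 34859676 (KO, DMSO) unique molecular identifiers (UMIs, each standing for 1 captured RNA). Of the barcodes, 13454, 17792 and 11642 passed the cell filter, with medians of 2438.5, 2276 and 2937 UMIs per cell, and 80 to 154 barcodes were shared by a pair of libraries (0.685% to 1.14% of the smaller one). Cells were placed in 9 classes by the summed UMIs of marker panels. Names end in "-like" because they rest on markers alone. Cells passing both macrophage gates form a class of their own, called double-gated. In resident alveolar macrophage-like cells Clec7a stood at 800 CPM (the usual depth-scaled count, here a gene's UMIs relative to all UMIs of the class in a library) in wild type under DMSO, 861 under GW5074 and 14.2 in the KO library. Neutrophil-like cells made up 2877 of the kept cells of the DMSO wild-type library but only 107 and 185 of the GW5074 and KO libraries. The neutrophil transcript S100a8 was present in every class. In resident alveolar macrophage-like cells it read 617, 159 and 234 CPM, and in migratory dendritic cell-like cells 315, 46.4 and 27.1 CPM. Thus the 2 libraries compared with wild type under DMSO carried less of it in both classes, and its part in the results below was not tested. Values are given in the order wild type under DMSO, wild type under GW5074, KO under DMSO.

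The 27 genes together took 0.120%, 0.131% and 0.115% of all UMIs in kept cells. Their summed level was highest in migratory dendritic cell-like cells, at 1370, 1774 and 1594 CPM. Resident alveolar macrophage-like cells followed, at 1555, 1417 and 1106 CPM, and double-gated macrophage-like cells read 1433, 1384 and 1254 CPM. The ranges of these 3 classes over the libraries overlapped, so their order is not beyond that spread. Conventional dendritic cell 2-like (cDC2-like) cells read 1047, 1359 and 1150 CPM, monocyte-derived macrophage-like cells 1087, 1148 and 1011 CPM, monocyte-like cells 787, 1242 and 1057 CPM, and conventional dendritic cell 1-like (cDC1-like) cells 1036, 1143 and 966 CPM. T cell-like cells at 754, 805 and 683 CPM and neutrophil-like cells at 716, 814 and 534 CPM were the lowest of the 9 classes in each library. Without Idi1 the migratory dendritic cell-like sum dropped to 1056, 1297 and 1100 CPM, below resident alveolar macrophage-like cells in wild type under both treatments (1437 and 1316 CPM) and above them in the KO (1033 CPM).

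**Figure D1:**
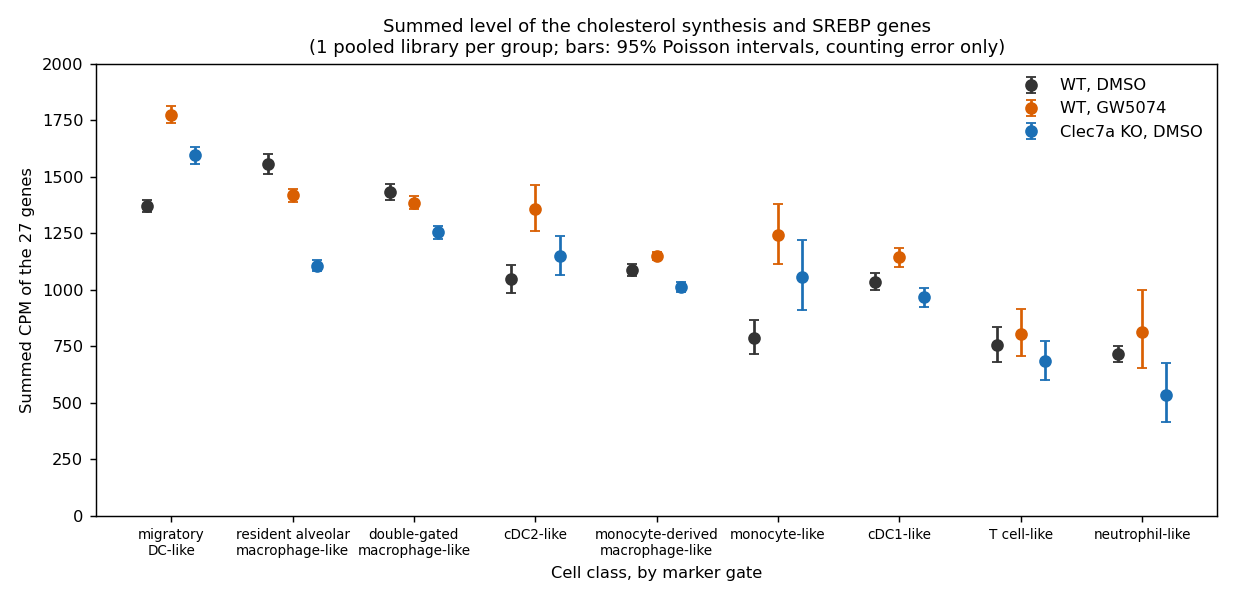
Summed CPM of the 27 genes (y axis) by cell class (x axis, ordered by the median over libraries), with 1 point per pooled library and 95% Poisson intervals. Migratory dendritic cell-like cells reach 1774 CPM under GW5074, and resident alveolar macrophage-like cells run from 1555 in wild type under DMSO to 1106 in the KO.

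The early mevalonate enzymes differed in where they were high. Hmgcs1, the synthase that makes HMG-CoA, stood at 189, 165 and 97.1 CPM in resident alveolar macrophage-like cells and at 100, 109 and 86.0 CPM in monocyte-derived macrophage-like cells. Its lowest class was neutrophil-like, with a median of 45.8 CPM. Mvd, which decarboxylates mevalonate diphosphate, was likewise highest in resident alveolar macrophage-like cells at 95.2, 107 and 70.8 CPM, 4.18 times its median in cDC1-like cells. Pmvk, phosphomevalonate kinase, had another order: it stood at 210, 125 and 153 CPM in migratory dendritic cell-like cells and at 230, 78.7 and 81.0 CPM in cDC2-like cells, where wild type under DMSO was far above the other libraries. Acat2, the acetyl-CoA acetyltransferase of the first step, and Mvk, mevalonate kinase, stayed under 30 CPM in all classes and libraries. Acat2 has a near-identical copy, Acat3, so its counts are uncertain.

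The sharpest difference among classes belonged to Idi1, the isomerase that makes dimethylallyl diphosphate. It read 314, 477 and 493 CPM in migratory dendritic cell-like cells. The next class, resident alveolar macrophage-like, read 118, 102 and 72.9 CPM, and neutrophil-like cells had a median of 27.1 CPM, a 17.6-fold difference between the highest and lowest class medians. Only Idi1 and Mbtps2 among the 27 had a highest class whose libraries all lay above every library of the class second by median. For Mbtps2 these libraries read 30.4 to 33.9 CPM, and a library of a further class read higher still. The share of all genes with such a gap was not counted. Fdps, farnesyl diphosphate synthase, was highest in cDC1-like cells at 76.8, 101 and 101 CPM and lowest in T cell-like cells. Ggps1, which makes geranylgeranyl diphosphate for protein prenylation, ran the other way, with its highest levels in T cell-like cells at 60.4, 55.8 and 45.1 CPM and its lowest median, 23.2 CPM, in cDC2-like cells.

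**Figure D2:**
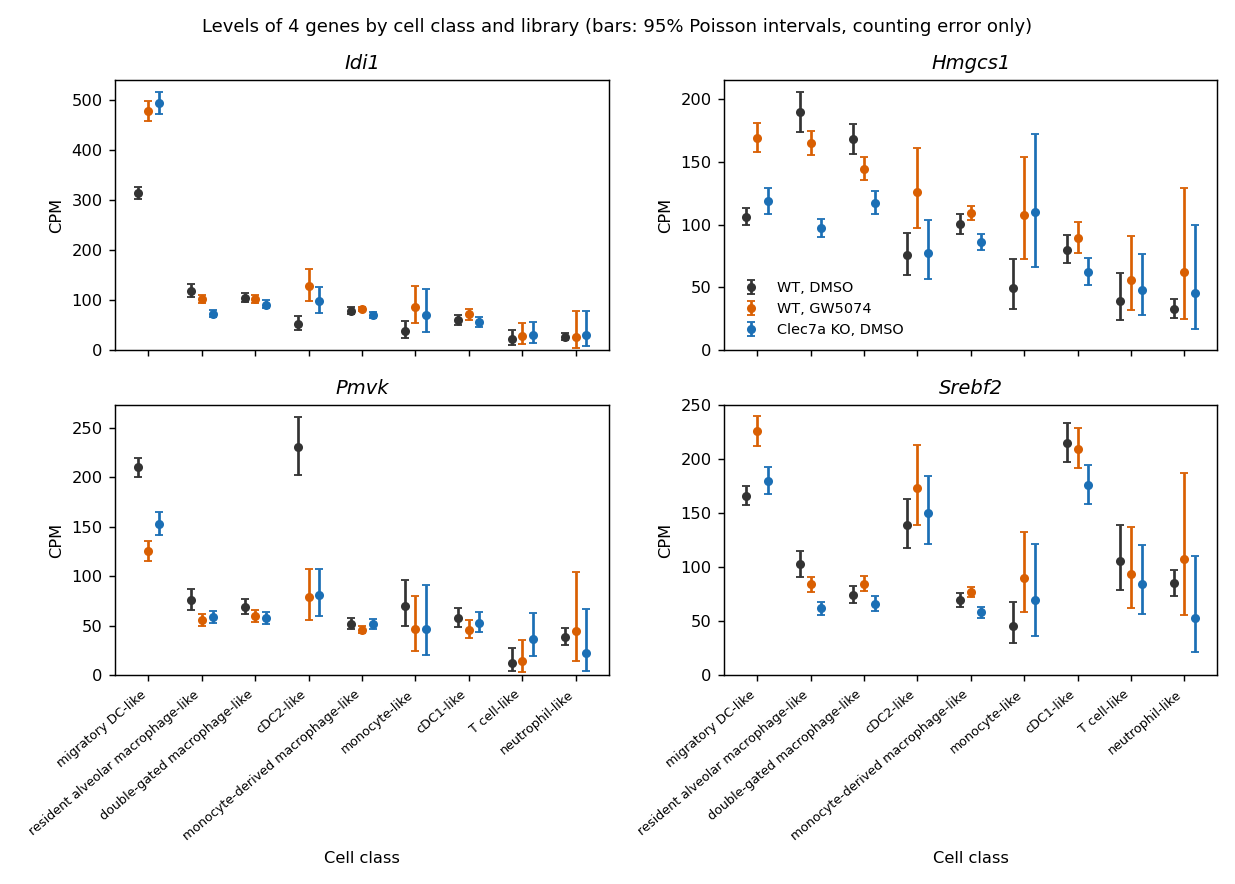
CPM (y axis) of Idi1, Hmgcs1, Pmvk and Srebf2 by cell class (x axis) and library (colours), with 95% Poisson intervals. Idi1 stands apart in migratory dendritic cell-like cells (314 to 493 CPM), and Pmvk in cDC2-like cells is at 230 CPM in wild type under DMSO against 78.7 and 81.0 CPM in the other libraries.

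By the median over libraries, most squalene and sterol enzymes were highest in cells of the macrophage gates. Of the 27 genes, 9 had their highest median in double-gated and 7 in resident alveolar macrophage-like cells. Among these, all but Mbtps2 overlapped their second class over the libraries. The share of all genes highest in these classes was not counted. Fdft1, squalene synthase, read 77.8, 75.6 and 61.5 CPM in double-gated cells, and Cyp51, the lanosterol demethylase, 106, 102 and 103 CPM there. Msmo1, the methylsterol oxidase, read 113, 102 and 73.3 CPM in resident alveolar macrophage-like cells and 10.4, 27.9 and 33.9 CPM in T cell-like cells. Ebp, the sterol isomerase, read 63.4, 58.0 and 73.5 CPM in monocyte-derived macrophage-like and 59.8, 62.8 and 76.1 CPM in double-gated cells, in no fixed order, and was lowest in migratory dendritic cell-like cells at 16.6, 21.2 and 30.3 CPM. Dhcr7, which finishes cholesterol by reducing its precursor, read 39.4, 29.0 and 24.4 CPM in resident alveolar macrophage-like cells, against 5.40, 5.77 and 2.53 CPM in migratory dendritic cell-like cells. Sqle, squalene epoxidase, stayed under 50 CPM, and Lss, Tm7sf2, Nsdhl and Hsd17b7 under 30 CPM. Sc5d, the lathosterol oxidase, was highest in cDC2-like cells at 30.4, 33.4 and 38.0 CPM. Fdft1, Cyp51, Ggps1 and Srebf1 overlap the protein-coding genes Ctsb, Akap9, Arid4b and Rai1 on the other strand, and Tm7sf2 and Mbtps2 overlap Vps51 and Yy2 on their own strand. Whether the counting used strand is not given in the sources used here, so reads of these pairs cannot be told apart.

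The control proteins followed the enzymes only in part. Srebf2, the SREBP that mainly drives cholesterol genes, was highest in dendritic cells: cDC1-like cells read 215, 210 and 176 CPM and migratory dendritic cell-like cells 166, 226 and 180 CPM, against 69.4, 76.8 and 58.4 CPM in monocyte-derived macrophage-like cells. Srebf1, which mainly drives fatty acid genes, was highest in resident alveolar macrophage-like cells at 43.9, 46.6 and 31.5 CPM. Insig1 was highest in the macrophage gates, at 69.3, 56.7 and 42.3 CPM in double-gated and 73.7, 55.3 and 37.7 CPM in resident alveolar macrophage-like cells. Scap was highest in cDC1-like cells (55.2, 59.0 and 35.6 CPM), and Insig2 and Mbtps1 in T cell-like cells, where Mbtps1 read 77.1, 66.2 and 22.6 CPM. Mbtps2 stayed between 10.7 and 43.2 CPM. Stard4, a cytosolic cholesterol carrier, was highest in resident alveolar macrophage-like cells at 50.2, 51.4 and 37.8 CPM.

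Over the 27 sums of class and library, Hmgcs1 had the closest pattern to the mean of the other members (Pearson r = 0.92 of log2(CPM + 10)), followed by Sqle (0.90), Fdft1 (0.89), Msmo1 (0.86) and Cyp51 (0.83). Srebf2 (0.04), Scap (0.09) and Insig2 (-0.01) were near 0, Mbtps1 stood at -0.26 and Ggps1 at -0.80. Points of 1 library share their depth and sequencing run, so these values are descriptions. Outside the set, the genes with the pattern most like the mean of the members, among 3235 candidates, were Sdc3 (0.90), Colgalt1 (0.89), Kynu (0.87), Cdc42bpb (0.87) and Ddhd1 (0.85).

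Since every library holds every class, differences between classes could be tested over the 3 libraries with edgeR's quasi-likelihood test, with the library as a block. The pools differ in treatment and genotype, so the test asks for what they share. Its p-values measure only the spread left after the library block, with the error taken from all 9 classes of these pools. Migratory dendritic cell-like cells were compared with cDC2-like cells first. Of the 27 genes, 9 were higher and 3 lower at an adjusted p under 0.05, beside 24.2% of 11908 genes higher and 21.7% lower. The share higher is near that background, and the share lower is under it. With a stricter gate 5 members were higher. Idi1 led with a log2 fold of 2.67 (SE 0.20, adjusted p = 9.8e-14 by edgeR) and was higher in 3 of 3 libraries. Tm7sf2 followed at 1.19 (SE 0.35), then Fdft1 at 0.91 (SE 0.24), Hmgcs1 at 0.89 (SE 0.20), Sqle at 0.82 (SE 0.24) and Srebf2 at 0.67 (SE 0.14). Mbtps1, Pmvk and Cyp51 were higher by 0.55 to 0.60, Mbtps1 in 3 of 3 libraries and Pmvk and Cyp51 in 2 of 3. The lower genes were Dhcr7 at -0.93 (SE 0.36), Ebp at -0.59 (SE 0.20) and Scap at -0.58 (SE 0.21). The median over the members was 0.32, against 0.02 over all genes tested. By plain CPM the median of all genes was -0.25, so these folds are relative to the TMM scaling. Pmvk (log2 fold 0.33) and Dhcr7 (-0.63) lost the call without the KO library, and Tm7sf2 (0.74) and Ebp (-0.40) without the DMSO wild-type library. Cyp51 lost it without the DMSO (0.36) or the GW5074 (0.60) wild-type library, Dhcr7 also without the GW5074 library (-0.97), Mbtps1 without the GW5074 library (0.52), and Scap without the KO (-0.52) or the DMSO wild-type library (-0.52).

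**Figure D3:**
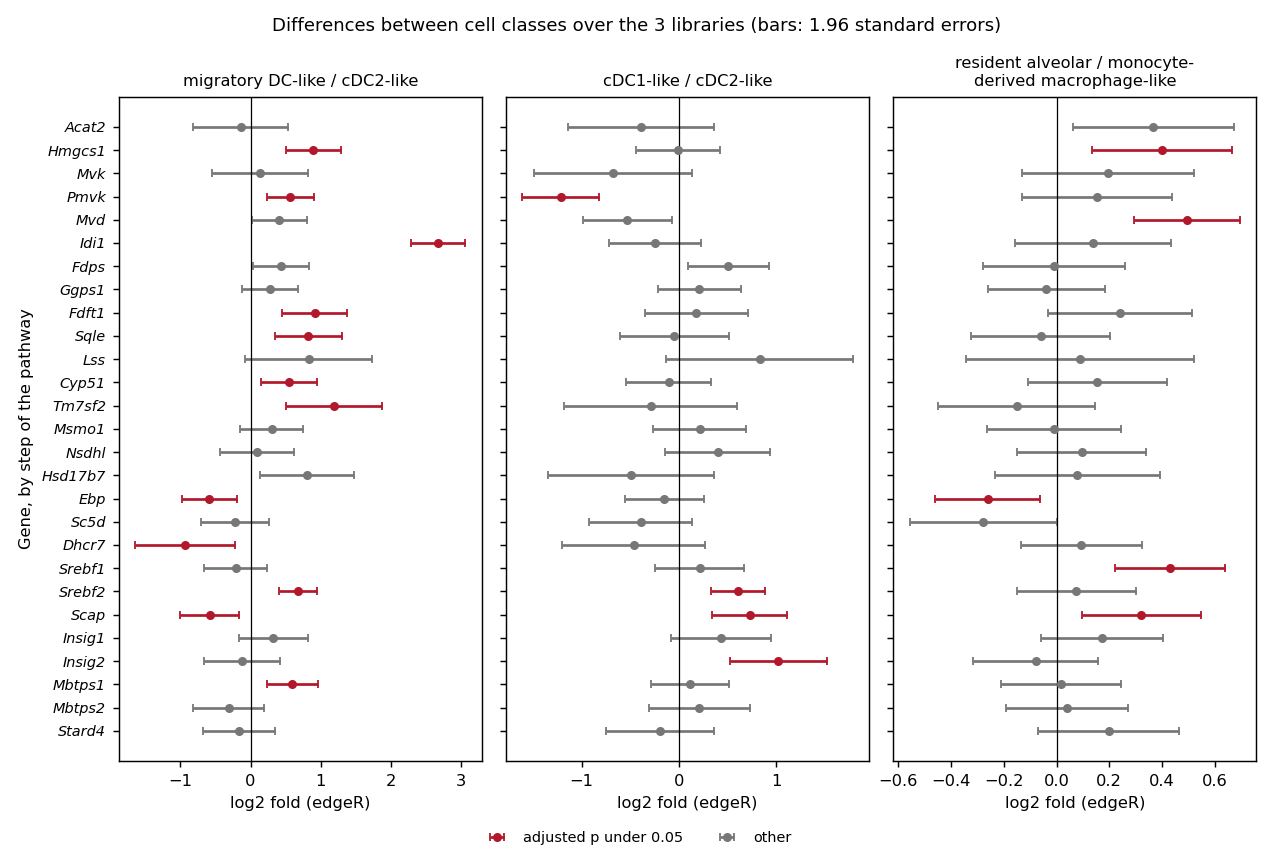
Log2 folds between cell classes from edgeR (x axis, a scale of its own in each panel) for the 27 genes (y axis, by step of the pathway). Bars are normal 95% intervals from the fit of 9 classes in 3 libraries, with the library as a block. Red points have an adjusted p under 0.05: Idi1 reaches 2.67 between migratory dendritic cell-like and cDC2-like cells, while between the macrophage classes the called genes run from -0.26 to 0.50.

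Between the 2 conventional dendritic cell classes, Insig2 (log2 fold 1.02, SE 0.26), Scap (0.73, SE 0.20) and Srebf2 (0.61, SE 0.14) were higher in cDC1-like cells by edgeR, and Pmvk (-1.21, SE 0.20) was lower. In all genes 12.4% were higher and 10.9% lower, so 3 and 1 of 27 are near the background. Without the DMSO wild-type library the Pmvk difference was -0.52 and lost its call, and Idi1 (-0.64), Mvd (-0.77) and Mvk (-1.23) gained one. Scap lost its call without the DMSO (0.63) or the GW5074 (0.59) wild-type library.

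Between resident alveolar and monocyte-derived macrophage-like cells, the number of members called depended on how the classes were made. Mvd (log2 fold 0.50, SE 0.10, adjusted p = 0.000231 by edgeR), Srebf1 (0.43, SE 0.11), Hmgcs1 (0.40, SE 0.14) and Scap (0.32, SE 0.11) were higher in the resident class, each in 3 of 3 libraries. Ebp was lower at -0.26 (SE 0.10, adjusted p = 0.0489). These 4 and 1 of 27 stand beside 12.8% higher and 16.6% lower of all genes. The share higher is thus near the background, and the share lower is under it. The median over members was 0.09, and that over all genes -0.03 after TMM scaling and 0.12 by plain CPM. None of the 5 was called when the library block was left out, Hmgcs1, Scap and Ebp each lost their call without at least 1 of the libraries, and with classes taken from clusters in place of the gate 13 members were higher, beside 12.2% of all genes, and none lower, beside 12.4%. Against monocyte-derived macrophage-like cells, monocyte-like cells had no member higher and 1 lower (Insig1, -0.98, SE 0.31, adjusted p = 0.0498 by edgeR), beside 1.8% higher and 5.2% lower of all genes. At an unadjusted p under 0.05, 0 were higher and 5 lower, beside 4.9% and 13.7% of all genes. Insig1 lost its call when any of the libraries was left out, with values from -1.28 to -0.62.

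In the KO library, resident alveolar macrophage-like cells held less RNA of much of the pathway than in wild type under DMSO. A member is called higher or lower where the CPM ratio is at least 1.5-fold and its interval excludes 1. In the KO 8 of 27 members were lower and 0 higher, while 7.85% of 8581 genes were lower and 3.47% higher by the same rule. The share of members lower is above that background. Of the 27 log2 ratios 23 were below 0, their median was -0.41, and that of all genes was -0.07. The summed level was 1.41-fold lower (log2 ratio -0.49, interval -0.55 to -0.44).

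Hmgcs1 went from 189 CPM (547 UMIs) in wild type to 97.1 CPM (662 UMIs) in the KO, 1.95-fold lower (log2 ratio -0.96, interval -1.13 to -0.80). Insig1 went from 73.7 to 37.7 CPM, 1.95-fold lower (interval on the log2 scale -1.23 to -0.70). Sqle read 49.1 and 27.6 CPM, Hsd17b7, the sterol ketoreductase, 18.7 and 10.6 CPM, and Srebf2 103 and 62.0 CPM. Idi1 read 118 and 72.9 CPM, Dhcr7 39.4 and 24.4 CPM, and Msmo1 113 and 73.3 CPM. The folds of these 6 lay between 1.54 and 1.78. Members lower with intervals that exclude 1 but under the 1.5-fold size included Cyp51 (1.47-fold), Fdft1 (1.45-fold), Srebf1 (1.39-fold) and Mvd (1.34-fold). Stard4 (50.2 and 37.8 CPM), Pmvk (76.1 and 58.8) and Fdps (85.5 and 69.2) were also among them. Ebp (59.5 and 66.7 CPM), Ggps1 (26.3 and 27.6), Scap (33.2 and 33.6) and Insig2 (20.4 and 23.6) read slightly higher in the KO, with intervals that include no difference. The GW5074 library lay between the other 2 libraries for Hmgcs1, Insig1, Sqle, Hsd17b7, Srebf2, Idi1, Dhcr7 and Msmo1. These genes were picked by the difference between those 2 libraries, which favours a middle place for the third. The share among all genes picked in the same way was not counted, so no effect of GW5074 is read from it. The share of resident alveolar macrophage-like cells with a Hmgcs1 UMI, with each cell thinned to 1000 UMIs, was 19.2% (exact binomial interval 16.5 to 22.1), 15.5% (14.2 to 17.0) and 8.50% (7.41 to 9.70), over 787, 2615 and 2352 cells, with 38, 190 and 120 shallower cells left out. Unthinned it was 43.6%, 29.2% and 20.8%, at median depths of 3230, 2238 and 2684 UMIs per cell. None of the sorted classes is known to lack Hmgcs1, so no background share was at hand; in T cell-like cells the thinned share was 4.78%, 5.48% and 4.27%.

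**Figure D4:**
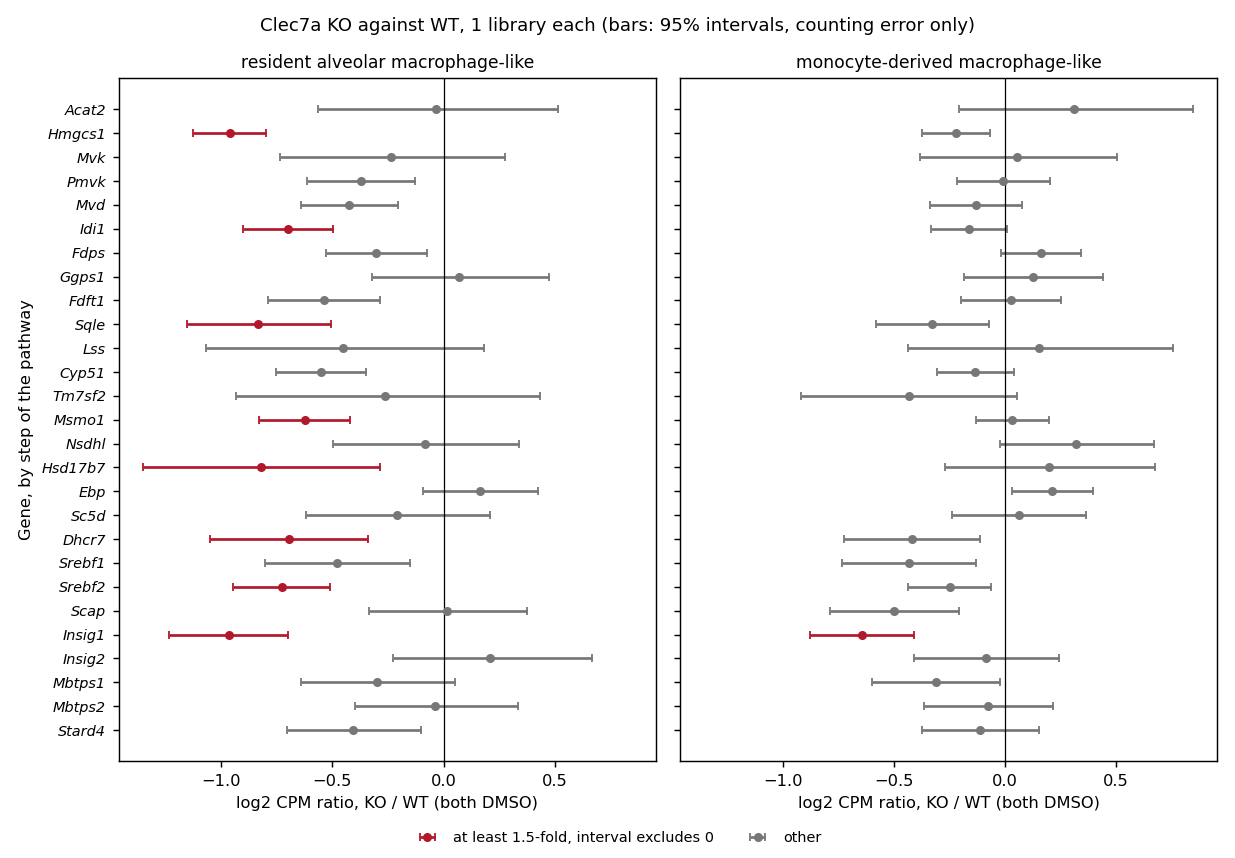
Log2 ratio of CPM in the KO library over wild type, both under DMSO (x axis), for the 27 genes (y axis, by step of the pathway) in the 2 macrophage-like classes, with 95% intervals that cover counting error. In resident alveolar macrophage-like cells 8 genes are lower by at least 1.5-fold, with Hmgcs1 and Insig1 at -0.96 and -0.97, and in monocyte-derived macrophage-like cells Insig1 alone passes, at -0.64.

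The resident alveolar macrophage-like class was not made up alike in the 3 libraries. Clustering without the 27 genes put 33.2%, 54.5% and 60.7% of its cells in a cluster led by Kcnip4, Htr2c and Egfem1 with Marco, Krt19 and Car4 (cluster 3), and 36.1%, 28.6% and 26.3% in one led by Car4, Kcnn3 and Ear2 (cluster 13). The alveolar macrophage panel had medians of 66.2, 84.4 and 91.7 UMIs per 10000 in the class, and the monocyte-derived panel 36.3, 28.5 and 24.9. The alveolar macrophage panel, which includes Chil3, also had a median of 56.6 in neutrophil-like cells of wild type under DMSO, and the neutrophil panel read 4.77, 0 and 0 in resident alveolar macrophage-like cells. A cluster led by S100a9 and S100a8 held 10.8% of the resident class in wild type under DMSO. The part of these differences in the KO ratios was not tested. Without clusters mostly from 1 library, the S100a9- and S100a8-led one among them, 9 members were lower in the resident class and 0 higher. Over all genes 7.59% were lower and 3.4% higher in that setting. The median log2 ratio was -0.42 for the members and -0.07 for all genes. Inside cluster 3 the summed level was 1910, 1525 and 1013 CPM, so wild type under DMSO was highest and the KO lowest, with intervals that do not overlap. Hmgcs1 there read 259, 183 and 90.2 CPM, Idi1 152, 113 and 61.0 CPM, Insig1 98.3, 65.3 and 32.2 CPM, and Sqle 66.0, 47.6 and 22.5 CPM. In the KO 16 members were lower inside this cluster beside 6.11% of all genes, and the median log2 ratio was -0.82, against -0.03 over all genes. Inside cluster 13 the summed level was 1532, 1358 and 1257 CPM. There 4 members were lower (Hmgcs1, Insig1, Srebf1 and Mbtps1), beside 7.68% of all genes. The median was -0.10 for the members and for all genes, with Hmgcs1 at 193, 152 and 110 CPM and Insig1 at 77.2, 49.4 and 45.8 CPM. Between wild type under DMSO and the KO, Idi1 read 112 and 79.9 CPM in cluster 13, Sqle 49.5 and 35.1, Srebf2 97.0 and 66.8, Dhcr7 35.6 and 26.8, and Msmo1 114 and 93.6, none of them called there. Hsd17b7 (12.9 and 13.7 CPM) and Cyp51 (101 and 109 CPM) did not keep their direction in cluster 13. Whether the 2 clusters differ in their KO ratios was not tested. A gate 1.5 times as strict gave 15 members lower, beside 6.9% of all genes.

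**Figure D5:**
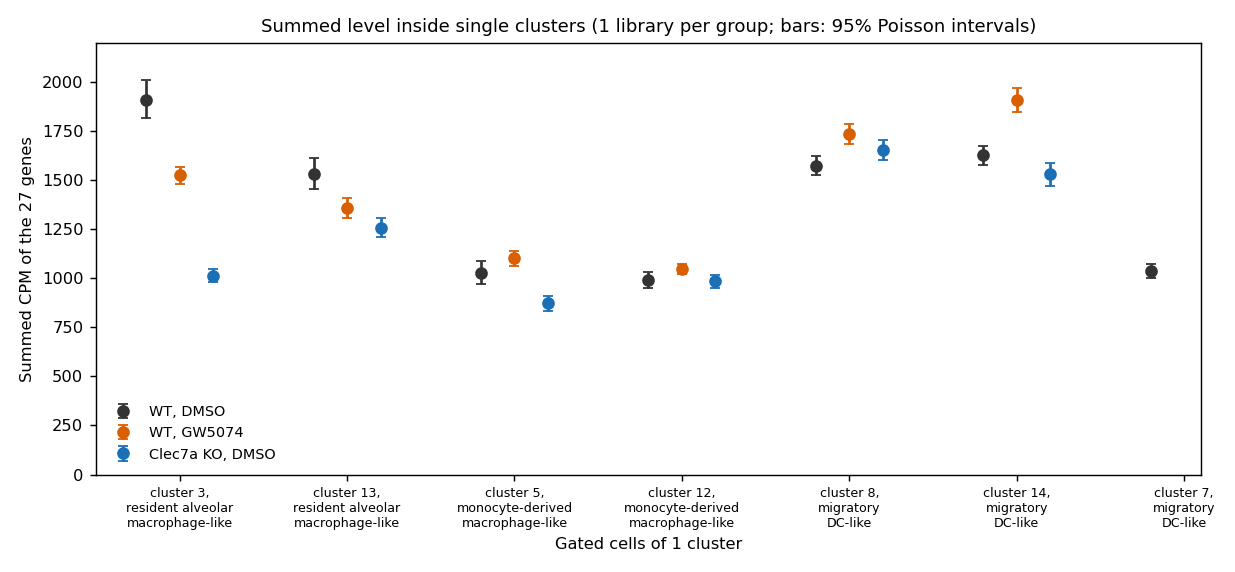
Summed CPM of the 27 genes (y axis) in the gated cells of single clusters (x axis), with 1 point per library and 95% Poisson intervals; cluster 7 had 50 or more gated cells in 1 library only. In cluster 3 the libraries read 1910, 1525 and 1013 CPM, and in cluster 12 990, 1047 and 984 CPM.

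Fewer members were called in the KO in the other macrophage classes, and whether the classes differ was not tested. Double-gated cells had 3 members lower and 0 higher, beside 5.82% of all genes lower and 1.99% higher: Dhcr7 (39.7 and 22.4 CPM in wild type under DMSO and the KO), Srebf1 (33.3 and 20.3) and Insig1 (69.3 and 42.3). Their median log2 ratio was -0.18, and that of all genes -0.08. The S100a9- and S100a8-led cluster held 19.5% of the double-gated cells and 11.8% of the monocyte-derived macrophage-like cells of wild type under DMSO, and cluster 13 held 39.4% of the double-gated cells there against 53.8% in the KO. Without clusters mostly from 1 library 4 members were lower in double-gated cells (Hmgcs1 besides the 3), with a median of -0.24, and Insig1 alone in monocyte-derived macrophage-like cells, with a median of -0.16. In monocyte-derived macrophage-like cells Insig1 alone was lower, at 50.6 and 32.4 CPM (1.56-fold, interval 1.33 to 1.84), beside 5.37% of all genes, and 0 were higher, beside 1.53%. There the median over 25 members, -0.11, was near that of all genes, -0.10. Insig1 was thus lower in the KO in all 3 macrophage classes. In cDC1-like cells Srebf1 (29.3 and 14.5 CPM), Insig1 (35.1 and 20.6), Scap (55.2 and 35.6) and Mbtps1 (39.8 and 25.7) were lower and Ebp (27.8 and 44.4) higher, beside 9.38% lower and 4.33% higher of all genes. These calls are among 22 members at 10 CPM or more, whose median log2 ratio was -0.06, near that of all genes, -0.09. The 4 lower genes are of the SREBP system, whose summed level in cDC1-like cells was 423, 422 and 325 CPM. Srebf2, Insig2 and Mbtps2 of the same system were not called there, and whether this system differs from the other members was not tested.

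In migratory dendritic cell-like cells of the KO library, Idi1 (314 and 493 CPM in wild type under DMSO and the KO), Fdps (57.7 and 101) and Ebp (16.6 and 30.3) were higher and Srebf1 (20.3 and 8.05) and Mbtps1 (51.8 and 34.0) lower, beside 4.11% higher and 15.3% lower of all genes. Much of this class in wild type under DMSO was a cluster scarcely seen in the other libraries (cluster 7, led by Fscn1, Ccr7 and Ccl5), which held 1148 of its 2926 cells, or 39.2%. These cells had a summed level of 1037 CPM, against 1572 and 1626 CPM in the other large clusters of the class (8 and 14) in the same library. Their Idi1 stood at 122 CPM, against 382 and 518 CPM, and Hmgcs1 at 41.8 CPM, against 156 and 142 CPM. Pmvk ran the other way, at 332 CPM against 126 and 143 CPM. Without clusters that came mostly from 1 library, the KO log2 ratio of Idi1 was 0.18 and that of Fdps 0.37, neither called, and Mbtps1, at -0.56, was no longer called. Srebf1 (-1.09) and Ebp (0.80) kept their calls, beside 9.35% lower and 3.54% higher of all genes.

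The same cluster bears on the comparison of GW5074 with DMSO, which shares the DMSO wild-type library. In migratory dendritic cell-like cells of the GW5074 library 8 of 25 members at 10 CPM or more were higher, beside 3.61% of all genes, and 1 was lower, beside 4.75%. The median log2 ratio was 0.52, and that of all genes -0.01. Acat2 (5.73 and 11.6 CPM under DMSO and GW5074), Stard4 (17.1 and 33.2), Fdft1 (46.4 and 85.4) and Msmo1 (39.7 and 69.7) were higher by 1.76 to 2.02-fold. Hmgcs1 (106 and 169 CPM), Nsdhl (11.8 and 18.4), Mvd (34.5 and 53.2) and Idi1 (314 and 477) were higher by 1.52 to 1.59-fold, and Pmvk (210 and 125 CPM) was 1.67-fold lower. Without clusters mostly from 1 library 2 members stayed higher, Acat2 (log2 ratio 0.86) and Stard4 (0.60), beside 2.91% of all genes, and 0 were lower, beside 1.3%. The median was 0.20 and Pmvk stood at -0.08, not called. Within cluster 8 no member was called, beside 3.18% higher and 1.75% lower of all genes, and the median was 0.15. Within cluster 14 there were 4 higher (Mvk, Nsdhl, Insig1 and Stard4), beside 3.01%, 0 lower, beside 2.26%, and a median of 0.25.

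In cDC2-like cells, a smaller class with 314, 277 and 215 cells, 11 of 26 members were higher and 1 lower under GW5074, beside 7.73% higher and 5.14% lower of all genes. Idi1 read 52.5 CPM (57 UMIs) under DMSO and 128 CPM (65 UMIs) under GW5074, Fdft1 23.0 and 66.9 CPM, Stard4 19.3 and 49.2 CPM, and Hmgcs1 75.5 and 126 CPM. Mvk, Mvd, Fdps, Sqle, Cyp51, Msmo1 and Hsd17b7 were the others higher, by 1.75 to 3.92-fold, on as few as 5 UMIs for Mvk. Pmvk was 2.92-fold lower (interval 2.09 to 4.19). In the KO 6 were higher (Mvk, Idi1, Fdps, Fdft1, Cyp51 and Stard4), beside 6.01% of all genes, and Pmvk was 2.84-fold lower, beside 8.98%. Both comparisons share the DMSO wild-type library, so these counts are not independent. Cluster 7 held 10.2% of the cDC2-like cells of that library, and without clusters mostly from 1 library Pmvk still stood at -1.45 under GW5074 and -1.42 in the KO.

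In macrophage-like cells under GW5074, members and all genes alike were seldom called by the 1.5-fold rule. The low counts of members are thus near the background. In resident alveolar macrophage-like cells 0 members were higher and 0 lower, beside 1.94% and 2.56% of all genes, with a median log2 ratio of -0.15 (all genes -0.02). These counts are for the class as a whole. Inside its cluster 3 the summed level was 1910 CPM under DMSO and 1525 CPM under GW5074, with intervals that do not overlap. Inside cluster 13 it was 1532 and 1358 CPM. Members called under GW5074 inside these clusters are not given here. In double-gated cells 0 members were higher and 0 lower, beside 1.07% and 2.2%. In monocyte-derived macrophage-like cells Lss, lanosterol synthase, was higher (6.41 and 10.0 CPM, 1.57-fold), beside 0.647% of all genes, 0 members were lower, beside 1.14%, and the summed level was 1.06-fold higher. In cDC1-like cells Nsdhl alone was higher (17.0 and 26.0 CPM), beside 4.16%, and 0 were lower, beside 1.87%. With cells thinned to 1000 UMIs its log2 ratio was -0.0098, not called, and a stricter gate or another scaling also ended the call. Monocyte-like cells had 8 of 23 members higher, beside 5.04%, and 0 lower, beside 4.62%. Among those higher were Hmgcs1 (49.7 and 108 CPM, on 27 and 30 UMIs), Cyp51 (31.3 and 93.6 CPM) and Fdft1 (23.9 and 75.6 CPM). This class held 167, 130 and 57 cells, so the ratios are loose. It also lay in different clusters: the S100a9- and S100a8-led cluster held 75.5% of it in wild type under DMSO, 30% under GW5074 and 14% in the KO, and cluster 2 held 35.4% under GW5074 and 33.3% in the KO. In the KO Hmgcs1 and Cyp51 were higher there, beside 4.94%, and 0 members were lower, beside 5.29%. Without clusters mostly from 1 library, no member was called in monocyte-like cells in either comparison, with Hmgcs1 at log2 ratios of 0.95 under GW5074 and 1.04 in the KO. T cell-like cells had Cyp51 and Stard4 higher and Sc5d lower under GW5074, on 3 to 24 UMIs each, beside 3.67% and 2.27%. In the KO Pmvk, Fdps and Msmo1 were higher and Mbtps1 lower there, beside 2.86% and 6.68%. Neutrophil-like cells had 0 members higher and 0 lower in either comparison, beside 7.04% higher and 5.1% lower of all genes under GW5074 and 6% and 5% in the KO, at only 111830 and 131045 UMIs in the class.

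Related pathways were described from 3 further lists. Outside monocyte-derived macrophage-like cells, the genes of these lists given by name were chosen after their values were seen. Of 14 SREBP-1 and fatty acid synthesis genes, 9 were at 10 CPM or more in resident alveolar macrophage-like cells, and Fasn and Scd2 were lower in the KO, with a list median of -0.30. Of 16 LXR and sterol handling genes, Abca1, the cholesterol exporter, was higher there in the KO and Ch25h, Cyp27a1, Gramd1a and Gramd1b lower, with a median of -0.10. Of 12 genes that use mevalonate products for prenylation, dolichol and ubiquinone, Rabggta alone was lower, with a median of -0.02. Of the LXR and prenylation lists, 16 and 10 genes were at 10 CPM or more there. Over all genes 7.85% were lower and 3.47% higher in the KO in this class, with a median of -0.07. In monocyte-derived macrophage-like cells, the largest class, no gene of the 3 lists was called under GW5074, beside 0.647% higher and 1.14% lower of all genes. Abca1 read 80.4, 111 and 103 CPM there and Scd2 40.4, 52.6 and 27.4 CPM. In the KO Mylip, which targets lipoprotein receptors for degradation, was lower (41.0 and 25.1 CPM), as was Gramd1a (43.4 and 27.7 CPM). They were the only calls of the 3 lists there, beside 5.37% lower and 1.53% higher of all genes. Between classes, 7 of 12 fatty acid genes tested were lower in migratory dendritic cell-like than in cDC2-like cells by edgeR and 0 higher, beside the 21.7% lower and 24.2% higher of all genes, among them Fads1 (log2 fold -1.92), Fads2 (-1.53), Fasn (-1.43) and Scd2 (-1.43). The 27 genes went both ways in the same comparison. There 9 were higher, Idi1, Hmgcs1, Fdft1 and Sqle among them, and Dhcr7, Ebp and Scap were lower. The share higher was near the background and the share lower under it, and whether the fatty acid genes differ from the 27 was not tested.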

How the data were processed

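Droplet libraries of 3' tags were made from sorted lavage cells. Per the submitters' processing notes, the authors used Cell Ranger 2.1.1 and mm10, and they deposited raw UMI counts per gene and barcode for each library. Barcodes below 200 detected genes or above 20% mitochondrial UMIs were removed. Classes were gated on summed marker UMIs per 10000. The panels were listed before the gate thresholds were chosen, and those thresholds were set after the data were seen. Cells passing several gates, other than both macrophage gates, were left out (2276 cells), and no doublet caller was run. Clustering (scanpy 1.11.5) left out the 27 genes. CPM were computed on counts summed per class and library, with exact 95% intervals that cover counting error only. Library ratios were called at 1.5-fold with an interval excluding 1, for genes at 10 CPM or more in a library compared. Classes were tested with edgeR 4.0.16 (quasi-likelihood, TMM, library block, Benjamini-Hochberg over 11908 genes, adjusted p 0.05), after a check on simulated data. DESeq2 1.42.0, other gates, filters, scalings and left-out libraries were alternatives. Named genes are the 27 members and, from 3 related lists, the highest and lowest 2 by log2 ratio in the largest class, with exceptions said in the text. The members and lists were chosen with earlier results of these data known.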

Additional observations from a re-analysis of the deposited data

Results flagged for a closer look

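For 4 genes the KO ratio was called in opposite directions in different cell classes. How many of all genes were called so was not counted. Each ratio compares 1 pooled library with another, and the differences between classes were not tested. Hmgcs1 had a KO log2 ratio of 1.15 in monocyte-like cells, on 27 UMIs in wild type under DMSO and 19 in the KO, and of -0.96 in resident alveolar macrophage-like cells. The monocyte-like cells lay in different clusters: 1 cluster led by S100a9 and S100a8 held 75.5% of them in wild type under DMSO and 14% in the KO. Idi1 had a ratio of 0.896 in cDC2-like and 0.651 in migratory dendritic cell-like cells, against -0.699 in resident alveolar macrophage-like cells. Without clusters mostly from 1 library, Idi1 was no longer called in migratory dendritic cell-like cells. Pmvk had a ratio of 1.55 in T cell-like cells, on 6 and 13 UMIs, against -1.51 in cDC2-like cells, on 250 and 49 UMIs. Msmo1 had a ratio of 1.7 in T cell-like cells, on 5 and 12 UMIs, against -0.626 in resident alveolar macrophage-like cells.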

How the results depend on the processing

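With 1 pooled library per group, mouse-to-mouse spread is not measured, and classes with few UMIs (monocyte-like, T cell-like) give wide intervals. No paired analysis was possible because each treatment and genotype has 1 library, for the comparisons between groups. The comparisons between classes had the library as a block. The alternatives that left out clusters mostly of 1 library or took single clusters were chosen after seeing the data. Where values moved, the cause was not tested.

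In resident alveolar macrophage-like cells of the KO, the median was -0.82 in cluster 3 and -0.10 in cluster 13, and the members lower numbered 15 with a stricter gate, 5 at a minimum of 50 CPM, 16 in cluster 3 and 4 in cluster 13, where Hsd17b7 stood at 0.085. In migratory dendritic cell-like cells under GW5074, the median was 0.20 without clusters mostly of 1 library, 0.15 in cluster 8 and 0.25 in cluster 14. The members higher there numbered 5 at 50 CPM, 2 without those clusters, 0 in cluster 8 and 4 in cluster 14. Nsdhl turned to -0.21 in cluster 8, Pmvk to 0.14 in cluster 14, and Nsdhl in thinned cDC1-like cells to -0.0098. The KO median in migratory dendritic cell-like cells was -0.072 without those clusters and -0.10 in cluster 14. The GW5074 median in monocyte-derived macrophage-like cells was -0.026 with a stricter gate.

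Between the macrophage classes, 13 members were higher with classes from clusters, 7 with only these classes fitted, 2 with DESeq2's Wald test, and 2 to 3 when a library was left out. Lower there were 2 with a stricter gate or only these classes, and 0 with classes from clusters, without cells with a cycling gene, with DESeq2 size factors, with no filter, with DESeq2's Wald test or without any 1 library. With classes from clusters Sqle turned to 0.40, Msmo1 to 0.36 and Ebp to 0.00143. Migratory dendritic cell-like against cDC2-like cells gave 5 higher with a stricter gate, and 7 to 9 higher and 1 to 2 lower when a library was left out. The cDC1-like comparison gave 1 higher with a stricter gate, 2 lower without clusters mostly of 1 library, and 2 to 3 higher and 1 to 3 lower when a library was left out. The monocyte-like comparison gave 0 lower with a stricter cell filter, without cycling-gene cells, without clusters mostly of 1 library, with DESeq2 size factors, with only these classes, with DESeq2's Wald test and without each library.

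Without the library as a replicate block, 0 members were higher and 0 lower between the macrophage classes, 7 higher and 1 lower between migratory dendritic cell-like and cDC2-like cells, 3 and 1 between the conventional dendritic cell classes, and 0 and 0 for monocyte-like cells. Over all alternatives, 155 values of the comparisons as a whole stayed and 49 moved.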

Other observations

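Cells with UMIs of 2 or more cycling genes were compared with the other cells of their class. In resident alveolar macrophage-like cells the summed level of the 27 genes differed by log2 ratios of -0.23, -0.25 and 0.01 in wild type under DMSO, wild type under GW5074 and the KO. In monocyte-derived macrophage-like cells the ratios were -0.14, 0.08 and 0.15. Among resident alveolar macrophage-like cells, 3 members were higher and 9 lower in the cycling cells of all 3 libraries, beside 24.9% and 23.1% of all genes. Mvd was one of those lower, at 63.0, 72.1 and 38.1 CPM in cycling cells against 101, 113 and 74.8 CPM in the others.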
